A study of Homo sapiens with 30 samples.

Results

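The histone gene cluster on chromosome 6 was taken as 2 stretches of hg19, chr6:26000000-26300000 (300 kb, the first block) and chr6:27000000-27900000 (900 kb, the second block), around the replication-dependent histone genes. Every peak that shared at least 1 bp with a block was a member. These were 606 of 195094 SEACR peaks over 25 H3K27ac lists, 10 of 392838 SEACR peaks over 5 H3K27me3 lists and 222 of 157073 peaks over 6 MACS2 lists, or 838 of 745005 peaks in all 36 lists. The 700 kb between the blocks, chosen by position alone, held 174, 42 and 93 peaks of the same 3 kinds and served for comparison.

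The peaks came from CUT&Tag of K562 cells, an established line from a chronic myeloid leukaemia, with 500000 growing cells in each experiment. In CUT&Tag an antibody on chromatin guides a transposase, which cuts and tags the DNA next to it. With 1 library for each condition there is no replicate error, and a p-value over lists or pairs measures only the spread among conditions, which share antibodies and cells. SEACR and MACS2 are peak callers, run by the authors on each library separately.

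Trichostatin A (TSA), a histone deacetylase inhibitor, was used in 4 H3K27ac libraries, with Abcam-ab177178, Abcam-ab4729 and Diagenode C15410196 at a 1/100 dilution and with Diagenode C15410196 at 1/50. Their untreated counterparts were 4 libraries with the same antibodies and dilutions, beside 1 untreated library with Active Motif 39133 at 1/100. All 9 were extracted with SDS and amplified for 15 cycles. A further 16 untreated H3K27ac libraries took the 4 antibodies, Diagenode C15410196 at 1/50 and the others at 1/100, through column or SDS extraction and 11 or 13 cycles, and were downsampled by the authors to a common depth before peak calling, per the labels. The H3K27me3 antibody CST9733 was used at 1/100 in 5 untreated libraries, by column and SDS at 11 and 13 cycles and by SDS at 15 cycles. The TSA dose and the read depth of the lists at 15 cycles were not given in these sources.

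Replication-dependent histone genes encode the H1 linker and the H2A, H2B, H3 and H4 core histones in many copies, and are transcribed mainly in S phase, when new DNA has to be packaged. They lie close together, many H2A and H2B genes as pairs transcribed away from a shared promoter. H3K27ac marks active promoters and enhancers, H3K27me3 is laid down by Polycomb repressive complex 2, and the residue cannot carry both marks at once.

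By symbol, the RefSeq gene table of GRCh38.p14 placed 55 protein-coding histone genes on chromosome 6, of which 6 encode H1, 12 H2A, 15 H2B, 10 H3 and 12 H4. They formed 3 runs. The run of 34 genes went from H2AC1 to H4C8, with 5 other coding genes inside it, among them HFE, the haemochromatosis gene. After it came 9 other coding genes, most of them butyrophilins (BTN3A2 to BTN1A1), which are membrane proteins of the immunoglobulin superfamily. A run of 5 genes, from H2BC11 to H2AC12, and a run of 16 genes, from H2BC13 to H2BC17, were separated by 5 other coding genes. The peaks are on hg19 and this table is on another build, so that peaks are named here by position and not by gene. The genes were taken by symbol and not by the blocks. In GRCh38.p14 the promoters of H2AC1 and H2BC1 stand at chr6:25726563-25726712 and chr6:25726627-25726776, and that of H1-1 at chr6:26017788-26017937. H2AC1 and H2BC1 thus lie well before the position at which the first block starts, and are kept in the counts of genes, motifs and pairs.

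The promoter letters of 1 gene per family, and of the H2B gene opposite the H2A gene, are shown because the motifs in them differ between the histone families. They are the 150 bases before the gene start in RefSeq, GRCh38.p14, 5′ to 3′ on the gene's strand. Capitals mark TATAAA (the TATA box), CCAAT (the CCAAT box), ATTTGCAT (the octamer that POU factors bind) and AAACACA (a box known from H1 genes), read on either strand.
H1-2, chr6:26056471-26056620, minus strand: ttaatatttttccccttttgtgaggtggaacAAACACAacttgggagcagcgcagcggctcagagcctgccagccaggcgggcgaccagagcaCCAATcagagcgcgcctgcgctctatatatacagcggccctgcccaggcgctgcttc
H2AC6, chr6:26124022-26124171, plus strand: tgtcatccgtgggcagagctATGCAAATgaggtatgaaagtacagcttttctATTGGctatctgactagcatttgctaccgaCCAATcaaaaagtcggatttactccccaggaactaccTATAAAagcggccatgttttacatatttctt
H2BC4, chr6:26123927-26124076, minus strand: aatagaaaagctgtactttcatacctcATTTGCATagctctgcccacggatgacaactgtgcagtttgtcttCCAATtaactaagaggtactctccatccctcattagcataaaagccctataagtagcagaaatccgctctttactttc
H3C1, chr6:26020301-26020450, plus strand: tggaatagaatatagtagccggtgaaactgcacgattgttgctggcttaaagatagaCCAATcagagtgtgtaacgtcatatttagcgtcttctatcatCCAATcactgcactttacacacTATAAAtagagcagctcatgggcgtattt
H4C2, chr6:26027284-26027433, minus strand: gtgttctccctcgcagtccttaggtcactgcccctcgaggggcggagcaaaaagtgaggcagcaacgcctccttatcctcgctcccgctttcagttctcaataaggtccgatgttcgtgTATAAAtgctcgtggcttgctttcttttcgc

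Promoters were found for 50 of the 55 genes, and the 4 motifs were searched independently, so that matches may overlap, in the 250 bases before the start on both strands. CCAAT stood in 43 of 50 histone genes (86.0%) against 37.0% of all 27305 genes, and the 7 without it were all H4 genes. TATAAA stood in 34 of 50 (68.0%) against 13.0% of all genes. The octamer stood in 22 of 50 (44.0%) against 2.03% of all genes, and these were 9 of 11 H2A genes, 12 of 15 H2B genes and 1 of 8 H3 genes. That H3 gene is H3C4, which has a pair of promoter entries, and the one with the octamer has the coordinates and letters of the H2AC7 promoter. AAACACA stood in 6 of 50 (12.0%) against 5.95% of all genes, and the 6 were all 6 H1 genes. In 9 pairs of genes pointing away from each other the promoter windows overlapped, and 8 of these joined an H2A gene with an H2B gene, as in H2AC6 and H2BC4 above. The remaining pair, H3C4 with H2BC7, is the same window as H2AC7 with H2BC7. These matches describe letters and not binding.

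H3K27ac covered the histone blocks more densely than the stretch between them in each of the 25 SEACR lists and in 4 of the 5 MACS2 lists. Cover, the percent of bases under SEACR peaks, had its lowest, median and highest values at 0.565%, 2.04% and 13.4% in the blocks, against 0.247%, 0.740% and 7.70% in the stretch between. The difference averaged 1.60 ± 1.26 percentage points (SD, n = 25 lists) and was above 0 in 25 of 25 lists, although the values of different lists overlapped widely (two-sided sign-flip permutation test, 100000 resamples, p = 1e-05, the smallest they can give, adjusted p = 5e-05 over 10 tests by Benjamini-Hochberg). With 1 mean per antibody the difference was 1.59 points in 4 of 4 antibodies, where the smallest p that the test allows is 0.125. In the 5 MACS2 lists it was 1.24 points (exact permutation p = 0.188), and the Active Motif list was the one below 0, with 0.0902% in the blocks against 0.174% in the stretch between.

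Set against each list's own cover of chromosomes 1 to 22 and X, the blocks were enriched for H3K27ac. The ratio of cover in the blocks to cover of the whole list had its lowest value at 4.00, its median at 7.88 and its highest at 17.7 over the 25 lists. On the log2 scale, with 1 kb added to the covered length in the blocks and to the length that the whole-list cover would give there, the mean was 2.57 ± 0.50 (SD, n = 25), above 0 in 25 of 25 lists (permutation test, p = 1e-05, adjusted p = 5e-05). With 10 kb added in place of 1 kb, a setting chosen after seeing the data, the mean was 1.43. The stretch between was also above the whole list in most lists, with a median ratio of 3.14 and a range of 0.863 to 7.62. Copy number of chromosome 6 in K562 is not corrected in these lists, and its part in these ratios was not tested.

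**Figure D1:**
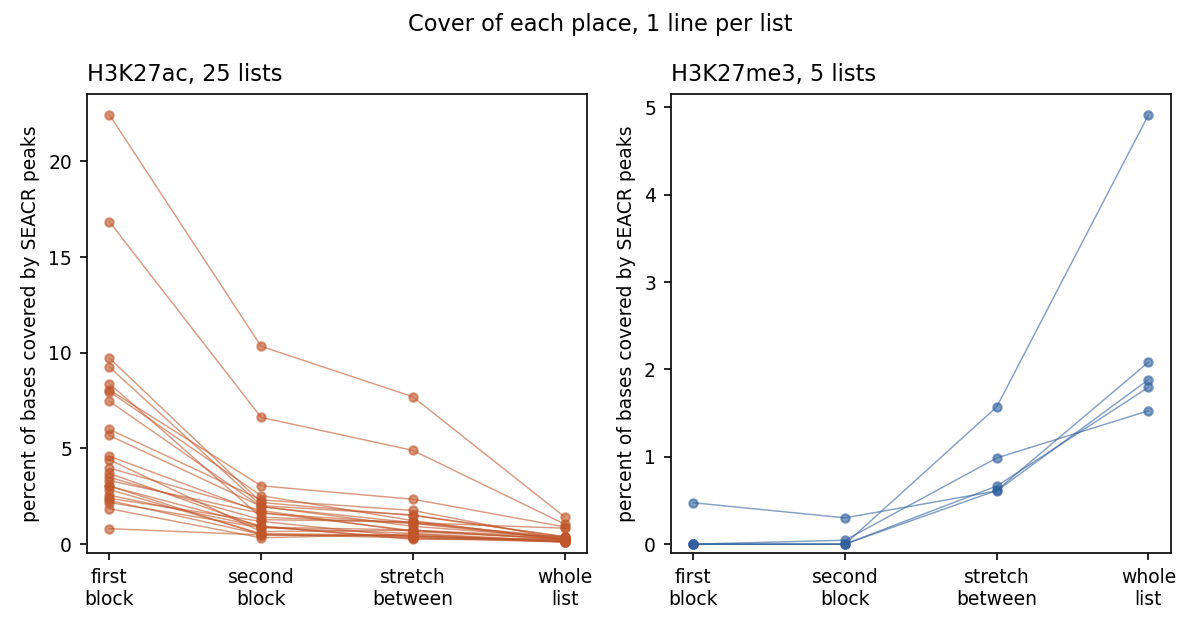
Percent of bases covered by SEACR peaks in the first histone block, the second histone block, the stretch between and the whole list, for 25 H3K27ac lists and 5 H3K27me3 lists (1 line per list). H3K27ac cover in the first block is above that in the stretch between in 25 of 25 lists, whereas H3K27me3 cover is at 0% in both blocks in 3 of 5 lists.

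The first block was the denser of the pair. Its H3K27ac cover had a median of 3.97% (range 0.809% to 22.4%), against 1.41% (0.333% to 10.3%) in the second block, and was higher in 25 of 25 lists. Relative to the whole list the median ratio was 15.7 in the first block and 5.30 in the second. The second block exceeded the stretch between in 23 of 25 lists. Per list, the first block held 2 to 22 peaks (median 10) in 300 kb and the second 3 to 30 peaks (median 11) in 900 kb.

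Along the blocks the cover came in 2 patterns. In the 3 bins of 100 kb of the first block, mean H3K27ac cover over the 25 lists was similar, at 5.18%, 5.96% and 6.42%. In the second block, 3 of 9 bins held 70.1% of the cover: the bin starting 100 kb into that block, at 3.85%, and the last 2 bins, at 3.92% and 4.48%. The remaining 6 bins lay between 0.187% and 1.36%. In the stretch between, the 3 bins next to the first block held 83.9% of the cover. A bin among the top 5% of a list by H3K27ac cover in at least 20 of 25 lists was found in 3 of 3 bins of the first block, 2 of 9 of the second and 1 of 7 between, against 1.78% of 30363 bins genome-wide.

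**Figure D2:**
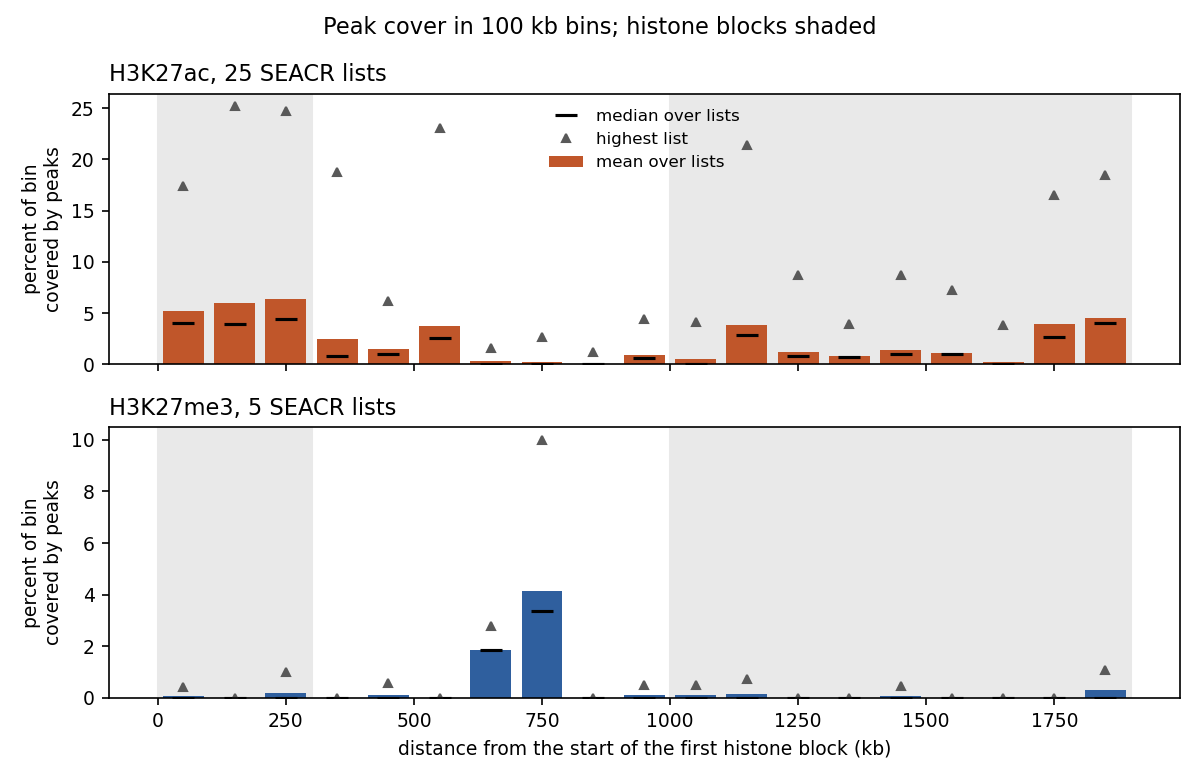
Percent of bases covered by H3K27ac (25 lists) and H3K27me3 (5 lists) SEACR peaks in 100 kb bins, by distance from the start of the first histone block, with the 2 blocks shaded; bars are means over lists, dashes medians and triangles the highest list. Mean H3K27ac cover is similar over the bins of the first block (5.18% to 6.42%) and is highest at 3 of 9 bins in the second. H3K27me3 stands mainly in 2 bins of the stretch between (1.87% and 4.14%).

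Joining the peaks of all 25 lists gave 20 H3K27ac regions in the first block, 41 in the second and 33 in the stretch between. Of those, 16, 12 and 5 were found in at least 10 lists, which is 5.33, 1.33 and 0.714 such regions per 100 kb. The median region spanned 3418 bp in the first block, 2269 bp in the second and 1878 bp between. Regions found in at least 20 of 25 lists were 5 of 61 in the blocks (3 of 20 in the first and 2 of 41 in the second), against 5.33% of 34663 regions genome-wide, and 2 of 33 between. The 20 regions of the first block were shared by all 4 antibodies in 15 cases (75.0%), those of the second in 13 of 41 (31.7%) and those between in 8 of 33 (24.2%), against 21.3% genome-wide. Regions seen in a single list were 2 of 20 (10.0%) in the first block, 15 of 41 (36.6%) in the second and 13 of 33 (39.4%) between, against 47.4% genome-wide. No region of the blocks was found in all 25 lists, against 1.06% genome-wide. The count of lists depends on how many peaks each list holds, which ranged from 3024 to 22808 for H3K27ac. Peaks joined in a region need not all share a base. In chr6:26213954-26219559 and chr6:27774124-27779137, each counted in 19 lists, at most 16 and 15 lists covered the same bases. Whether the wider regions of the first block raised its sharing was not tested.

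**Figure D3:**
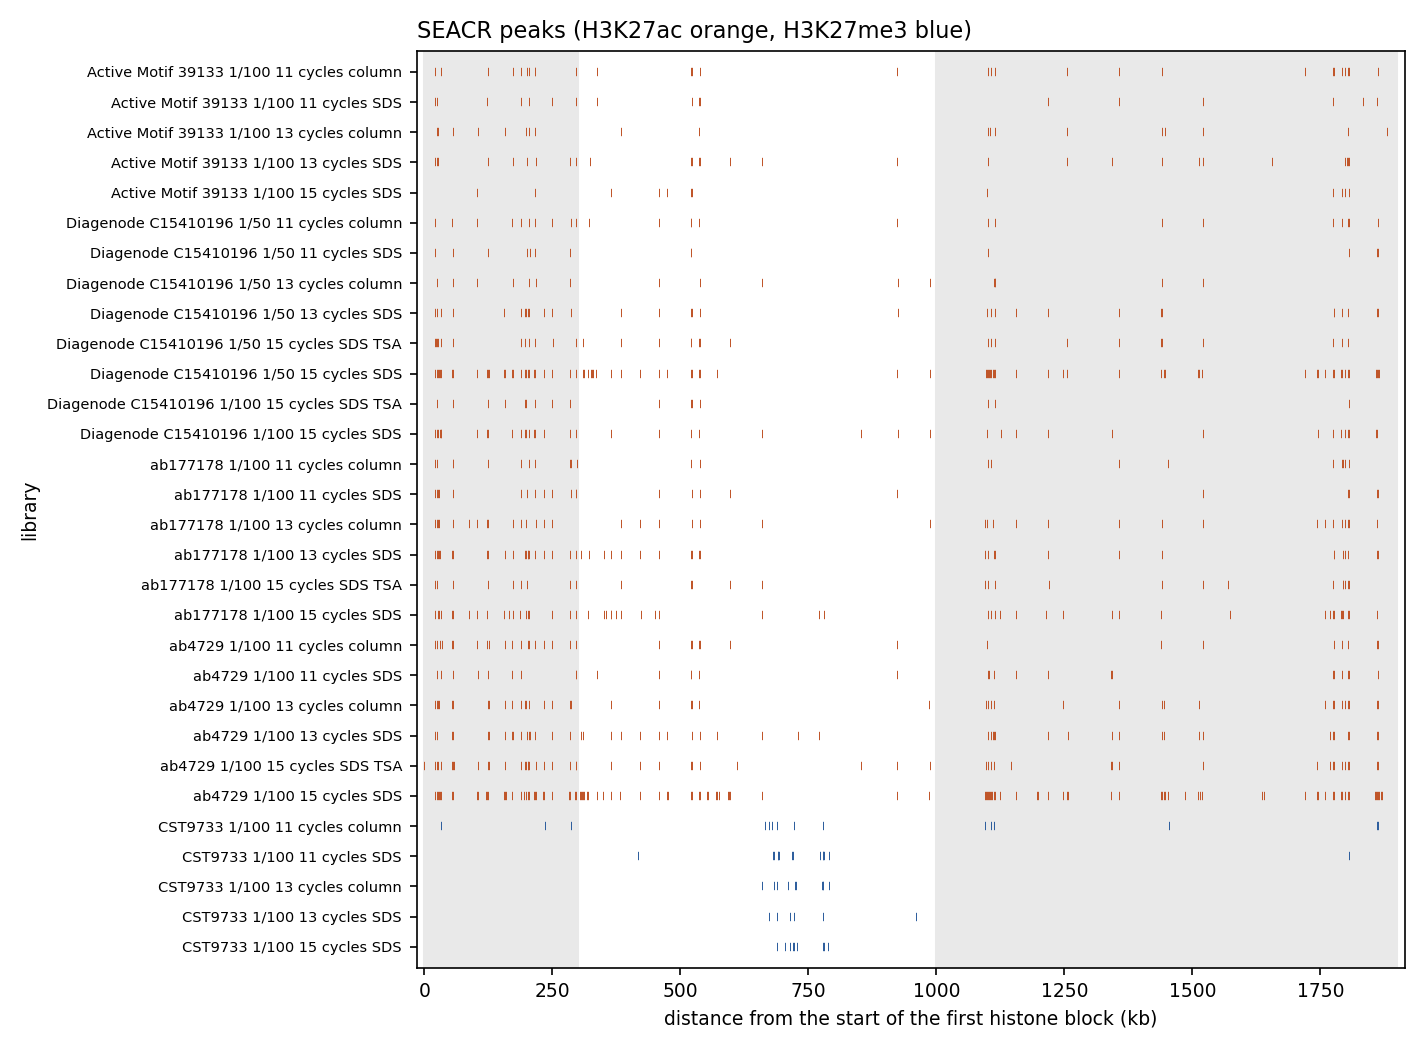
SEACR peaks of each of 30 lists (rows) by distance from the start of the first histone block, with H3K27ac in orange, H3K27me3 in blue and the histone blocks shaded. Peaks narrower than 2 kb are drawn 2 kb wide. H3K27ac peaks line up across antibodies in the first block and, in the second, around chr6:27095859-27104672 and near the far end. Of the 10 H3K27me3 peaks in the blocks, 9 belong to the column library at 11 cycles.

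The region found in the most lists was chr6:27803814-27808478, near the far end of the second block. It carried a peak in 23 of 25 H3K27ac lists, with a mean rank percentile of 85.3 and a median of 91.6. The rank percentile places the total signal of a peak, as SEACR wrote it in column 4, within its own list, with 100 for the strongest. Where a list had several peaks in a region, the strongest gave the rank and the widest the width. Its peaks were up to 4649 bp wide, with a median of 2233 bp. In the TSA lists its rank was 75.7 for ab177178, 82.6 for ab4729, and 76.0 and 96.5 for the Diagenode antibody at 1/100 and 1/50, against 87.7, 91.6, 95.9 and 93.7 in the untreated lists of the same antibodies. In the untreated Active Motif list at 15 cycles, the shortest list, its rank was 13.96. The 2 lists without it were Active Motif with SDS at 11 cycles and Diagenode with a column at 13 cycles.

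The region next in order was chr6:27095859-27104672, in 22 lists with a mean rank of 63.4. It was found in all 5 untreated lists at 15 cycles and in all 4 TSA lists. Its own widest peak was at most 755 bp for ab4729 with TSA, against 8814 bp for the same antibody untreated. A peak of 10226 bp at chr6:27857300-27867525, also with ab4729 untreated, was the widest H3K27ac peak of the blocks, and this region was named after its values were seen. In the first block, chr6:26024427-26030902 was found in 21 lists (mean rank 69.0) and chr6:26053627-26058850 in 20 (61.7). Also in the first block, chr6:26020522-26022844 was found in 20 lists (57.7), chr6:26213954-26219559 in 19 (54.9) and 3 others in 18 each, at chr6:26120924-26127730, chr6:26201874-26206959 and chr6:26282639-26287427 (63.6, 58.1 and 48.2). The remaining region of the 10 was chr6:27774124-27779137, in 19 lists of all 4 antibodies (mean rank 60.9). In the stretch between, the most shared regions were chr6:26520253-26525396 in 22 lists (70.0), chr6:26536559-26540615 in 21 (60.9) and chr6:26457447-26459138 in 18 (57.0).

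Peaks in the blocks were of middling strength within their lists. The median rank percentile of a list's block peaks ranged from 27.3 to 64.6 with a median of 48.8, against 7.27 to 70.4 with a median of 43.6 in the stretch between. The difference averaged 3.14 ± 19.6 percentile points (SD, n = 25), above 0 in 13 lists and below it in 12 (permutation test, p = 0.435, adjusted p = 0.483). It was -0.61 for the second block alone and -0.35 without ab177178, so that no direction was established. Above the 90th percentile of their list lay 34 of the 606 block peaks (5.61%), against 3 of 174 between (1.72%), both below the 10% that all peaks of a list give by construction.

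Block peaks were slightly wider than those between. The median width of a list's block peaks had a median of 1050 bp and a range of 690.5 to 2784 bp, against 1031.5 bp and 479 to 2469 bp in the stretch between. The log2 ratio averaged 0.14 ± 0.22 (SD, n = 25), above 0 in 17 of 25 lists (permutation test, p = 0.00423, adjusted p = 0.0141). In the 16 downsampled lists alone it was 0.080 (p = 0.101), and in the 5 MACS2 lists 0.078 (exact permutation p = 0.688). For widths and for the ranks above, the median of the stretch between rested on few peaks in some lists. There were 2 with ab177178 by column at 11 cycles and 2 with Diagenode by SDS at 11 cycles, and each list counted equally.

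H3K27me3 was nearly missing from the blocks. The SDS lists at 13 and 15 cycles and the column list at 13 cycles had 0 peaks there, the SDS list at 11 cycles had 1 and the column list at 11 cycles had 9. Cover of the blocks was 0.344% in that column list and 0.0337% in the SDS list at 11 cycles. In the stretch between, the same 5 lists had 6 to 12 peaks each and covers of 0.609% to 1.57%. The difference, blocks minus stretch between, averaged -0.81 ± 0.49 percentage points (SD, n = 5) and was below 0 in 5 of 5 lists (exact sign-flip permutation test, p = 0.0625, the smallest that 5 lists allow, adjusted p = 0.104).

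Against the whole list, whose H3K27me3 cover ranged from 1.53% to 4.91%, the blocks were low. The log2 ratio averaged -4.22 ± 1.36 (SD, n = 5) with 1 kb added, and was below 0 in 5 of 5 lists (exact permutation p = 0.0625, the smallest possible, adjusted p = 0.104). Because 3 lists are at 0 this value depends on the constant, and with 10 kb added, a setting chosen after seeing the data, it was -1.78. The stretch between was below the whole list as well, though less so than the blocks. Its cover was 0.320 times that of the whole list with SDS at 15 cycles and 0.646 times with SDS at 11. It was 0.323 times with a column at 11 cycles and 0.295 times with SDS at 13. The MACS2 list of H3K27me3 at 15 cycles also had 0 peaks in the blocks and 9 in the stretch between, where that list covered 1.48% of bases.

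The 10 H3K27me3 peaks of the blocks were narrow and weak, 337 to 587 bp wide and at rank percentiles 5.60 to 38.7, and each was found in 1 list. Regions in at least 3 of 5 lists were 0 of 10 in the blocks and 3 of 24 in the stretch between, against 27.8% of 147671 regions genome-wide. Of the 10, 9 lay on an H3K27ac peak of some list, against 2 of 24 in the stretch between and 6.94% of the 147671 regions genome-wide. The genome-wide share joins all 5 lists, whereas 9 of the 10 block peaks came from the column list at 11 cycles, whose own share was not computed. H3K27ac also covered more of the blocks than of the whole list, which makes overlap there more likely. The peak of the SDS list at 11 cycles lay in chr6:27803814-27808478, the region most often found for H3K27ac. Of the 61 H3K27ac regions of the blocks, 8 overlapped an H3K27me3 peak of any list, against 28.7% genome-wide. Without the column list at 11 cycles, 1 of 61 did, against 23.7% genome-wide. What sets that column list apart was not tested.

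In the stretch between, H3K27me3 lay in its own place. The bins 600 and 700 kb from the start of the first block had a peak in all 5 lists, with mean covers of 1.87% and 4.14%, and H3K27ac covered 0.330% and 0.202% of them. The region chr6:26689502-26690551 was found in 5 of 5 lists with a mean rank of 71.3, chr6:26777804-26780493 in 5 with 60.0 and chr6:26720062-26724032 in 4 with 51.7, and none of the 3 overlapped an H3K27ac peak. The other 2 of the 5 were found in 2 lists each, chr6:26679657-26680797 (60.6) and chr6:26673503-26674360 (45.1). Of the 12 bins of the blocks, 6 had no H3K27me3 peak in any of 5 lists, against 52.5% of 30363 bins genome-wide. In the 6 block bins with an H3K27ac peak in at least 20 of 25 lists, 5 had no peak in the 4 H3K27me3 lists other than the column list at 11 cycles, against 47.3% of 1976 such bins genome-wide.

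TSA lists covered less of the blocks than their untreated counterparts. With ab177178, H3K27ac peaks covered 17.9 kb of the blocks with TSA and 51.6 kb without. With ab4729 they covered 40.0 kb with TSA and 160.4 kb without. Diagenode gave 13.6 kb with TSA and 48.8 kb without at 1/100, and 21.98 kb with TSA and 110.2 kb without at 1/50. The TSA list was the lower in each of the 4 pairs, and all 4 TSA values were below all 4 untreated values of these pairs. The log2 ratio averaged -1.88 ± 0.34 (SD, n = 4 pairs), and the exact sign-flip permutation test gave p = 0.125, the smallest that 4 pairs allow (adjusted p = 0.179).

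The stretch between was also covered less with TSA in all 4 pairs. Its log2 ratios were -2.27 for ab177178, -2.63 for ab4729, and -1.50 (1/100) and -1.94 (1/50) for Diagenode. The whole lists also covered less with TSA, by a mean log2 ratio of -1.48 ± 0.67 (SD, n = 4), and the depth of these lists is unknown, so that treatment and depth cannot be told apart. Relative to the whole list the change in the blocks was -0.40 ± 0.78 (SD, n = 4; exact permutation p = 0.375), with 0.64 for ab177178, -1.20 for ab4729, and -0.72 (1/100) and -0.30 (1/50) for the Diagenode antibody. With ab4729 the TSA list had more peaks in the whole genome, 22808 against 13394 untreated, while in the blocks it had 41 against 47.

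**Figure D4:**
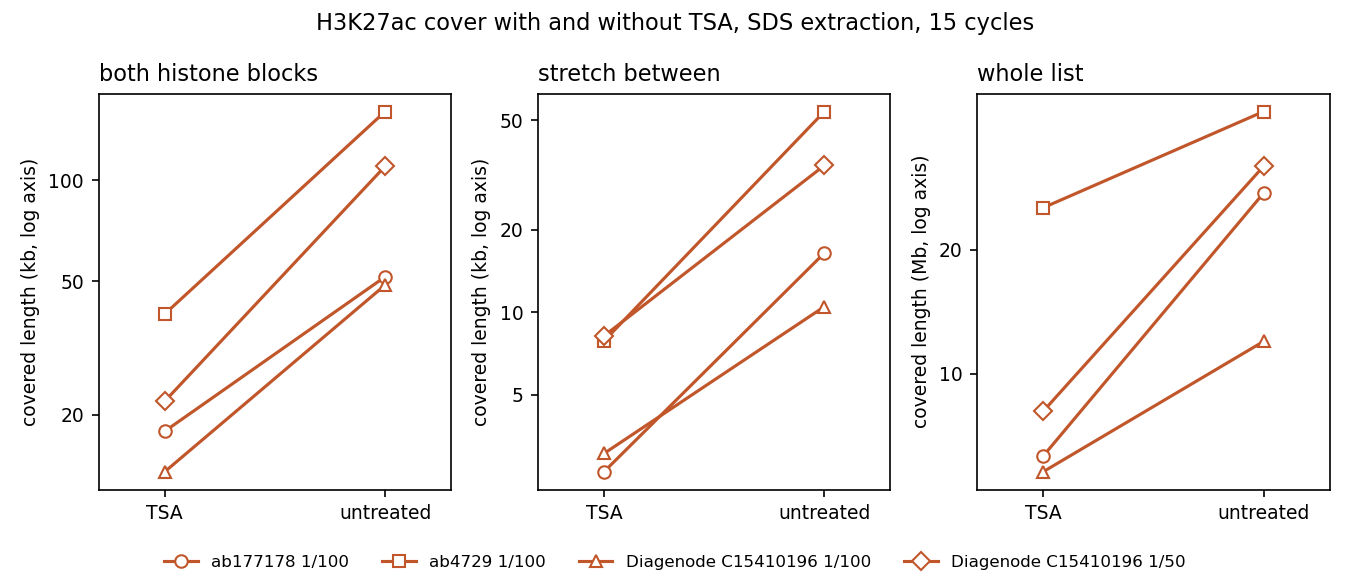
Length covered by H3K27ac SEACR peaks with TSA (left) and untreated (right) in both histone blocks, in the stretch between and in the whole list, for 4 pairs of libraries joined by lines, on log axes. All 4 pairs are lower with TSA in the blocks, from 13.6 to 40.0 kb with TSA and 48.8 to 160.4 kb untreated. All 4 are lower in the stretch between and in the whole list too.

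Peaks in the blocks were also narrower with TSA. Their median width was 766.5 bp with TSA and 1163.5 bp untreated for ab177178, and 785 bp and 2784 bp for ab4729. For Diagenode it was 1055.5 bp with TSA and 1410 bp untreated at 1/100, and 1050 bp with TSA and 2349.5 bp untreated at 1/50. The whole lists had narrower peaks with TSA too, with medians of 753 bp against 1393 bp untreated for ab177178, and of 922 bp against 2736.5 bp for ab4729. For Diagenode the medians of the whole lists were 1145 bp with TSA and 1339.5 bp untreated at 1/100, and 1075 bp with TSA and 2256 bp untreated at 1/50. Peak numbers in the blocks were 22, 41, 12 and 20 with TSA and 38, 47, 27 and 40 untreated, in the same order of antibodies. Those of the whole lists were 7056, 22808, 4462 and 6301 with TSA and 16623, 13394, 7834 and 11844 untreated. Of the TSA peaks in the blocks, 14 of 22, 36 of 41, 8 of 12 and 20 of 20 overlapped a peak of the untreated list, against 59.9%, 51.6%, 78.2% and 93.6% in the whole lists.

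Over these 8 lists the blocks held 57 regions. Found in all 4 untreated and all 4 TSA lists were 3 of them (5.26%), against 5.45% of 30254 regions genome-wide: chr6:26024427-26030902, chr6:27095859-27104672 and chr6:27803814-27808478. Present in the 4 untreated lists and absent with TSA was 1 region, against 0.456% genome-wide, chr6:27154712-27157089, named after its values were seen. It was found in 7 of 25 lists in all, with a mean rank of 30.6.

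Among the 16 downsampled lists, the blocks were covered over a range of 0.712% to 3.89% (8.55 to 46.7 kb). The mean of 4 lists was 3.08 ± 0.77% for ab4729, 2.45 ± 1.12% for ab177178, 1.49 ± 0.55% for Active Motif 39133 and 1.41 ± 0.75% for Diagenode at 1/50 (SD over the 4 preparations, not replicates). The ranges of neighbours in that order overlapped, and no antibody was tested against another. Relative to the whole list the mean ratio was 12.0 for ab4729, 8.86 for Active Motif, 7.06 for Diagenode and 6.95 for ab177178, so that the order of the antibodies was not the same on this scale. In the untreated lists at 15 cycles, Diagenode at 1/50 covered 9.18% of the blocks and at 1/100 4.06%, with 40 and 27 peaks, and relative to the whole list the ratios were 8.74 and 10.3.

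Column and SDS lists differed in both directions in the blocks. The log2 ratio of covered length, column over SDS, averaged 0.069 ± 0.82 (SD, n = 8 pairs), above 0 in 5 of 8 (exact permutation p = 0.836, adjusted p = 0.836). At 11 cycles it was 0.54 ± 0.47 (3 of 4 above 0), and at 13 cycles -0.41 ± 0.87 (2 of 4). The extremes were Active Motif at 11 cycles, with 27.7 kb by column and 13.6 kb by SDS, and Diagenode at 13 cycles, with 8.55 kb by column and 28.7 kb by SDS. Leaving out ab4729 or Active Motif turned the sign of the mean, to -0.054 and -0.096, as did keeping the stronger 50% of peaks of each list, to -0.071.

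Cover of the blocks was higher at 13 than at 11 cycles in 6 of 8 pairs, with a mean log2 ratio, 13 over 11 cycles, of 0.33 ± 0.88 (SD, n = 8; exact permutation p = 0.305, adjusted p = 0.381). With SDS the ratio was above 0 in 4 of 4 pairs (0.80 ± 0.56), and with a column in 2 of 4 (-0.15 ± 0.94). The largest change with SDS was that of Diagenode, 28.7 kb at 13 cycles and 11.4 kb at 11, and ab177178 had 45.9 kb at 13 and 19.1 kb at 11. With a column, Diagenode had 8.55 kb at 13 cycles and 19.1 kb at 11, and Active Motif 15.9 kb at 13 and 27.7 kb at 11. The whole lists went the other way on average (-0.22 ± 0.75). Relative to the whole list the blocks held more at 13 cycles, by 0.55 ± 0.48 (SD, n = 8; exact permutation p = 0.0234, not adjusted), with 7 of 8 pairs above 0. Of these, Diagenode with a column was at 0.0022 only through the 1 kb added to block lengths. In the stretch between, 13 cycles also gave more relative to the whole list in most pairs. The exceptions were Active Motif and Diagenode by SDS (0.24 against 0.26, and 0.85 against 0.92). Both were exceptions only through the 1 kb added to lengths in a window. Active Motif had 3.92 kb there at 13 cycles and 3.16 kb at 11, and Diagenode 4.95 kb at 13 and 2.305 kb at 11. The shift was thus not particular to the blocks, and was not tested in the stretch between. In ab4729 with a column, the blocks had 46.7 kb at 13 cycles and 37.8 kb at 11, while the whole list had 6.69 Mb at 13 and 11.2 Mb at 11.

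**Figure D5:**
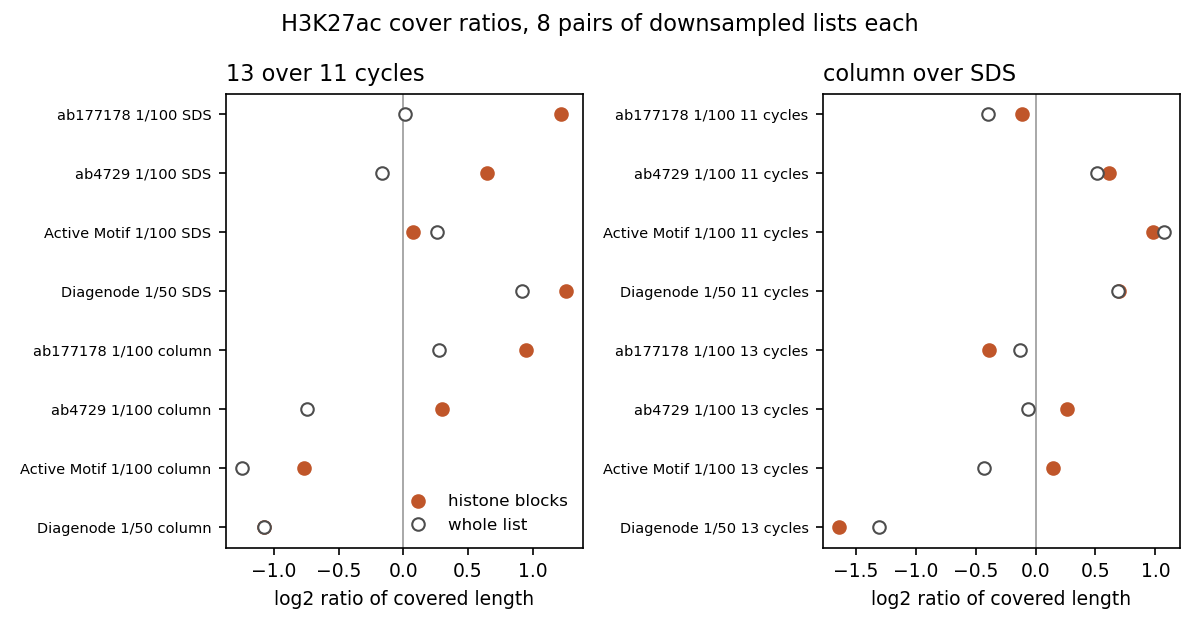
Log2 ratio of H3K27ac covered length in the histone blocks and in the whole list (filled and open points) for 8 pairs of downsampled libraries each, 13 over 11 cycles and column over SDS. Block lengths have 1 kb added and whole lists have none. The points of Diagenode with a column coincide. In the blocks, ratios run from -1.64 to 0.98 for column over SDS and from -1.07 to 1.26 for 13 over 11 cycles, on both sides of 0.

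MACS2 covered less of the blocks than SEACR in each of the 5 untreated H3K27ac libraries at 15 cycles, 4 of which also served as the untreated lists in the comparison with TSA. The covered length was 6.49 kb with MACS2 and 51.6 kb with SEACR for ab177178, and 85.2 kb and 160.4 kb for ab4729. For Active Motif it was 1.08 kb with MACS2 and 6.78 kb with SEACR. For Diagenode it was 9.11 kb with MACS2 and 48.8 kb with SEACR at 1/100, and 58.5 kb and 110.2 kb at 1/50. The log2 ratio averaged -1.76 ± 0.85 (SD, n = 5), below 0 in 5 of 5 (exact permutation p = 0.0625, the smallest possible, adjusted p = 0.104), and relative to the whole list it was -0.27. MACS2 peaks in the blocks were narrower, with median widths of 272 to 633 bp against 934 to 2784 bp with SEACR. Their number was higher with MACS2 for ab4729 (96 against 47) and Diagenode at 1/50 (80 against 40). It was lower with MACS2 for ab177178 (19 against 38), Active Motif (4 against 7) and Diagenode at 1/100 (23 against 27). Of the MACS2 peaks, 18 of 19, 75 of 96, 4 of 4, 20 of 23 and 66 of 80 lay on a SEACR peak of the same library, in the order ab177178, ab4729, Active Motif, Diagenode at 1/100 and Diagenode at 1/50. The shares over all peaks of the MACS2 lists were 92.2%, 72.5%, 83.8%, 87.3% and 75.9%, in the same order. The blocks had a MACS2 cover of 0.0902% to 7.10%, against 0.174% to 3.71% in the stretch between, and 2.58 to 9.04 times that of the whole MACS2 list.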

How the data were processed

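Peak lists of 30 CUT&Tag libraries of K562 cells were used. Per the submitters' processing notes the build was hg19, the callers SEACR and MACS2, and the other tools, with no role given, were Bowtie2 2.2.9, SAMtools 1.3.1, Picard 2.6.0, Trim Galore 0.6.6, bedtools 2.25.0 and bcl2fastq. Each of the 30 SEACR lists deposited by the authors gives a total signal (column 4) and a maximum signal per peak. In the 6 deposited MACS2 lists every peak has a −log10 q-value, a −log10 p-value, a fold enrichment and a score. Names of MACS2 peaks carry a q of 1e-05, per the deposited files. How SEACR was set, and how deeply each library was sequenced, is not given in the sources used, so that the depth behind a value is unknown. Lists at 11 and 13 cycles were downsampled, per the labels. The labels do not say whether the libraries are from separate cultures.

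Peaks outside chromosomes 1 to 22 and X were dropped, and a peak belonged to a window with at least 1 bp of overlap. Cover was computed after merging overlapping peaks. Ranks used the deposited total signal for SEACR and the deposited −log10 q-value for MACS2, and score and fold were not used. Regions were unions of overlapping peaks over lists. Those named in the text are the 10 of the blocks and the 3 of the stretch between found in the most H3K27ac lists, and the 5 found in the most H3K27me3 lists, with ties broken by mean rank percentile. The members and lists were chosen with earlier results of these data known. Means were tested with two-sided sign-flip permutation tests, exact below 10 values and with 100000 resamples otherwise, adjusted over 10 tests by the Benjamini-Hochberg method. A log2 ratio of lengths in a window had 1 kb added to each length, and a ratio of whole lists had none added. The code ran in Python 3.11.15 with scipy 1.17.1, pandas 2.3.3, numpy 2.4.6 and matplotlib 3.10.9, and was tested on simulated data. Alternatives covered the block, stronger peaks, merging within 1 kb, the antibodies and lists included, the unit of the test, the caller, the constant and scaling to the whole list.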

Additional observations from a re-analysis of the deposited data

How the results depend on the processing

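Of 109 recalculated values, 61 came from tests that could reach 0.05 both here and in the reported setting, and 54 of these kept the direction and the side of the threshold. The other 48, among them all of the H3K27me3, TSA and MACS2 over SEACR comparisons, kept the direction and could not show more, since their number of values, or that of the reported setting, does not let p reach 0.05. The difference in H3K27ac cover between the blocks and the stretch between was 1.59 percentage points with 1 mean per antibody (exact permutation p = 0.125) and 1.24 in the MACS2 lists (p = 0.188). The log2 ratio of H3K27ac cover to the whole list was 2.57 per antibody (p = 0.125) and 1.98 in the MACS2 lists (exact permutation p = 0.0625, in both cases the smallest that the number of values allows). The log2 ratio of peak widths was 0.14 per antibody (exact permutation p = 0.125), 0.080 in downsampled lists (p = 0.101) and 0.078 in the MACS2 lists (p = 0.688). The difference in rank was -0.61 for the second block and -0.35 without ab177178. The column over SDS ratio was -0.071 for the stronger 50% of peaks, -0.054 without ab4729 and -0.096 without Active Motif 39133. The ratio of 13 over 11 cycles was 0.55 relative to the whole list (exact permutation p = 0.0234). The stretch between shifted the same way in most pairs, and the exceptions came only through the 1 kb added to lengths in a window. The shift was thus not particular to the blocks. The 10 kb constant was chosen after seeing the data for the ratios to the whole list. The cause of these changes was not tested, beyond the smaller number of values where antibodies or MACS2 lists were the unit.

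No paired analysis by replicate number was possible because each condition had 1 library and the labels carry no replicate numbers. The pairs tested were matched by antibody and dilution, and differ in TSA, extraction, cycles or peak caller. No difference between conditions can be checked against replicates. Unknown depth at 15 cycles limits the comparison of those lists by length or number of peaks, and an exact permutation test over 5 H3K27me3 lists cannot go below p = 0.0625.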
